A study of Mus musculus with 2 samples.

Results

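The data described here are the transcript levels of 9 genes that import amino acids or make and break down polyamines, in single group 2 innate lymphoid cells (ILC2s) of the mouse lung. They were taken by name from a list: the amino acid transporter genes Slc7a5, Slc7a8, Slc3a2, Slc1a5, Slc38a2 and Slc7a1, and the polyamine genes Odc1, Srm and Sat1. All 9 were found among the 32285 genes of the count tables, and all were measured in barcodes in which 500 genes or more were detected and mitochondrial counts stayed within 10%, which left 8394 wild-type (WT) and 7087 Pac1-/- cells. Levels were compared between the libraries and between cells with and without transcripts of the cytokine genes Il5, Il13 and Il2.

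ILC2s live in barrier tissues, carry no antigen receptor and answer epithelial alarm signals with type 2 cytokines, and a cell that makes large amounts of secreted protein depends on amino acid supply. The SLC7 light chains Slc7a5 (LAT1) and Slc7a8 (LAT2) pair with the heavy chain Slc3a2 (CD98) to exchange leucine and other large neutral amino acids, Slc1a5 (ASCT2) and Slc38a2 (SNAT2) carry glutamine and small neutral amino acids, and Slc7a1 (CAT1) carries arginine, lysine and ornithine. Ornithine decarboxylase (Odc1) converts ornithine to putrescine, spermidine synthase (Srm) makes spermidine from putrescine, and the acetyltransferase Sat1 marks spermidine and spermine for breakdown or export. Polyamines are small cations that bind nucleic acids and are needed for growth and translation.

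The study compared lung ILC2s of WT mice with those of Pac1-/- mice, which lack PAC1, the dual-specificity phosphatase encoded by Dusp2, to find which programs of these cells depend on it. Per the study's methods, the mice were young adults on a C57BL/6J background, and no stimulation is named for this experiment. Per the labels, the sort gate took live lineage-negative cells with CD90.2, ST2 and Sca-1. Several mice of a genotype were combined before droplet capture, as sorted ILC2s per the labels and as mixed lung cells per the methods, so each genotype is 1 library, no cell can be assigned to a mouse, and no test between genotypes is possible. The deletion is carried by the whole animal, so differences can arise in the ILC2s or around them.

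The deposited counts held 10866 barcodes with 56182065 unique molecular identifiers (UMIs, each 1 captured transcript) for WT and 9495 barcodes with 60283285 for Pac1-/-. The cells that passed held a median of 4186.5 UMIs in WT and 5577 in Pac1-/-. At least 3 of 8 ILC2 markers were detected in 8157 WT and 6884 Pac1-/- cells. Of the passing cells, 7480 WT and 6470 Pac1-/- cells could be thinned to 2000 UMIs each. Of those, 80.1% and 76.6% held a transcript of Gata3, and 81.9% and 80.6% one of Il1rl1 (ST2). Cells with 3 markers of another type numbered 37 (0.441%) and 69 (0.974%). The libraries shared 15 of the passing barcodes. Dusp2 had 1419 UMIs in WT cells and 5 in Pac1-/- cells. Over 14 immediate-early and heat shock genes, which respond to tissue dissociation, the summed level was 18140.1 counts per 1000000 UMIs (CPM) in WT and 22905.6 in Pac1-/-, and the hemoglobin transcript Hbb-bs was at 33.5 and 102.3 CPM. The median mitochondrial share was 2.50% and 3.27%. The part of these differences in the results was not tested.

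Levels in CPM are the UMIs of a gene summed over cells and scaled to all UMIs of those cells. UMIs come from the 3′ end of a transcript and do not scale with its length. Since the median of 12427 genes was 0.19 higher in Pac1-/- on the log2 scale, a difference between libraries is given relative to that median gene, and a gene is called higher or lower when it lies more than 1.5-fold from it. Of all genes tested, 8.2% were called higher and 12.8% lower in Pac1-/-. Values in parentheses are 95% intervals that cover counting error only, not mice, sorting or library preparation.

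Of the 9 genes, 4 were lower in Pac1-/- ILC2s by this measure and 0 were higher: Slc38a2, Slc7a5, Odc1 and Slc7a1. These are a glutamine carrier, the leucine exchanger, the enzyme that commits ornithine to polyamines and the carrier that imports arginine and ornithine. The ratios of Slc3a2 and Slc1a5 lay near that of the median gene, and Sat1 lay below it and Slc7a8 and Srm above it without reaching 1.5-fold. Set against the 12.8% of all genes called lower, 4 of 9 is a larger share, and the small number of genes, listed with earlier results of these data known, permits no more than that description.

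**Figure D1:**
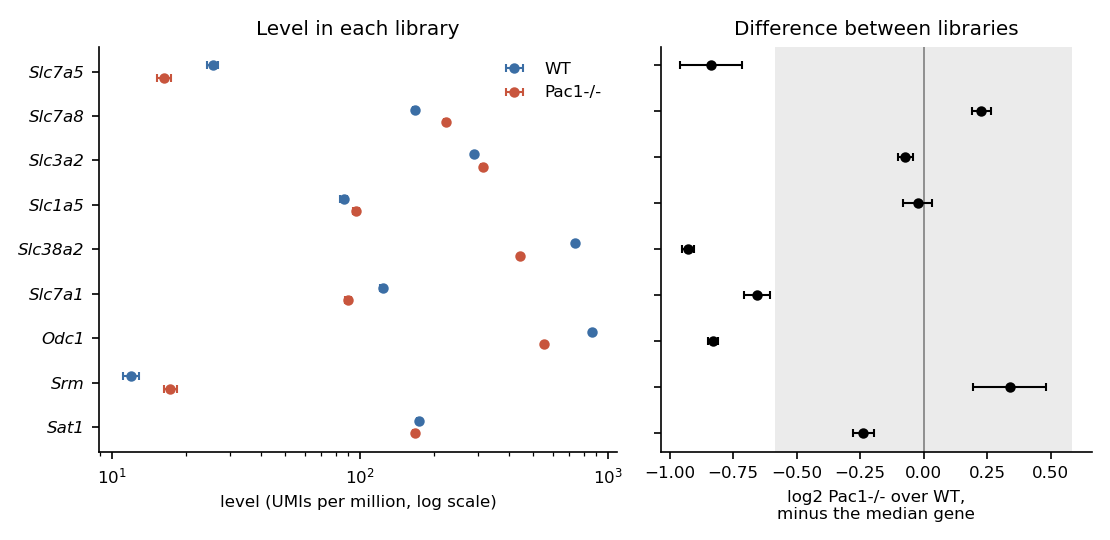
Left, the level of each gene in CPM on a log scale, with WT in blue, Pac1-/- in red and bars for the 95% counting interval. Right, the log2 ratio of Pac1-/- over WT minus the median gene, with the grey band marking ratios under 1.5-fold; Slc7a5, Slc38a2, Slc7a1 and Odc1 lie to the left of it.

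The promoters of 6 of the 9 genes were found in the RefSeq sequence table (GRCm38.p6), as windows from 250 bases before to 50 bases after an annotated start. No window was matched for Slc7a5, Slc1a5 and Srm. The windows of Odc1, Slc38a2 and Slc7a1 are shown because these genes, with Slc7a5, were those lower in Pac1-/- cells, and that of Slc7a8 because its level was not. Each is written 5′ to 3′ along the gene. Capitals mark TGACG or its reverse complement CGTCA, the half-site of the cAMP-response element bound by CREB family factors. The neuropeptide CGRP, which the study examined, signals through cAMP.

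Odc1, chr12:17544623-17544922, + strand:
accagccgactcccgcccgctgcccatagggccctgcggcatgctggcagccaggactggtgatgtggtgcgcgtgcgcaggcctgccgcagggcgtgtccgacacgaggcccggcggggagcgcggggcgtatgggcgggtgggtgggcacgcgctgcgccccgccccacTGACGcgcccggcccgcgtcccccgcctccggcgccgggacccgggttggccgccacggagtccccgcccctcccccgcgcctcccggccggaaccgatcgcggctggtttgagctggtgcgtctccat

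Slc38a2, chr15:96699679-96699978, - strand:
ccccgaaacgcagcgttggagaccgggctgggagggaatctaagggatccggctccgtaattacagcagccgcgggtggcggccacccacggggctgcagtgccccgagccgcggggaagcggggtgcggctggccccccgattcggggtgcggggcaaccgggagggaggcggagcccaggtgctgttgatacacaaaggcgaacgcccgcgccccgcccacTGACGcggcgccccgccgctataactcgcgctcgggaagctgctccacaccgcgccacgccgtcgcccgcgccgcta

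Slc7a1, chr5:148399855-148400154, - strand:
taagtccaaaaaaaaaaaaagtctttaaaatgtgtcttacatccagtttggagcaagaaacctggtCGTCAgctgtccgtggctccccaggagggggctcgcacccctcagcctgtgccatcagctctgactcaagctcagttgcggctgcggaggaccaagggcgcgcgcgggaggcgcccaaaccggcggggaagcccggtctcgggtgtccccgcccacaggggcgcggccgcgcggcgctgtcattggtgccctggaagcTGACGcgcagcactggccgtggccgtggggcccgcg

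Slc7a8, chr14:54781837-54782136, - strand:
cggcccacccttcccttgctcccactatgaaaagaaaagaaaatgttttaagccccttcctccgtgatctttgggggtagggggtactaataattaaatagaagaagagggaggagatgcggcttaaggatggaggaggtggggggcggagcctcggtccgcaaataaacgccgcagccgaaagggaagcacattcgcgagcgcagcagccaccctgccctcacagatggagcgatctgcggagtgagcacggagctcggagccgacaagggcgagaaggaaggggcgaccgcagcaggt

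The half-site was present in the windows of Odc1, Slc38a2 and Slc7a1 and in none of the other windows found, which were those of Slc7a8, Slc3a2, Sat1 and a second start of Slc7a1. The Slc3a2 window (chr19:8713848-8714147, - strand) lies inside the gene, and its last bases were found in no transcript. Whether that start is used in these cells was not tested. The half-site occurs in 20.8% of the 32851 windows of the table, so a match is common. In Odc1 it began 79 bases and in Slc38a2 27 bases before the start, and Slc7a1 held a copy 184 bases before the start and another after it. The windows of Odc1 and Slc38a2 share the run cccacTGACGcg, 12 bases long and found on either strand of 5 windows in the table. A run of nearly the same length, gaaacctggtc with 11 bases, is shared by Slc7a1 and Slc3a2, which did not move alike, and is found in 9 windows. The full element TGACGTCA (1.79% of windows), the E-box CACGTG (7.15%) and the ATF4 element core TTGCATCA (0.895%) had no match in the 7 windows of these genes, and the GC box GGGCGG (35.7%) was present in windows of all 6 genes. These are letter matches chosen after the levels had been seen, counted on both strands. They do not show that a factor binds there.

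All 9 are protein-coding genes, with positions given on GRCm38 from GENCODE. Slc7a5 (chr8:121881150-121907694), the leucine exchanger, had 25.5 (24.2 to 26.9) CPM in WT and 16.3 (15.2 to 17.3) in Pac1-/- cells. The intervals did not overlap, and the log2 ratio relative to the median gene was -0.84 (-0.96 to -0.72). It was sparse in both libraries: of cells thinned to 2000 UMIs, 4.45% in WT and 2.81% in Pac1-/- held a transcript. Slc7a8 (chr14:54722209-54781946), the other light chain, went the other way in level, from 168 (164 to 171) to 223 (219 to 227) CPM, with 0.23 (0.19 to 0.27) as the relative log2 ratio. Of thinned cells, those with an Slc7a8 transcript made up 26.4% in WT and 33.5% in Pac1-/-. Their shared heavy chain Slc3a2 (chr19:8706882-8723369) was at 290.3 (286 to 295) and 314 (310.0 to 319) CPM. Its relative log2 ratio was -0.07 (-0.10 to -0.04), and without the median correction it was 0.12, so its direction depends on the scaling. Of the 2 light chains, the one with the lower level was thus reduced in Pac1-/- cells, and the chain that both pair with stayed within 1.5-fold.

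Slc38a2 (chr15:96687392-96699730), a sodium-coupled carrier of glutamine and alanine, was at 740.4 (733 to 748) CPM in WT and 443 (438 to 448) in Pac1-/-. With a relative log2 ratio of -0.93 (-0.95 to -0.91), it differed most between libraries among the 9 genes. A transcript was found in 68.1% of thinned WT and 50.6% of thinned Pac1-/- cells, and in 83.4% and 75.1% of cells before thinning. Slc1a5 (chr7:16781340-16798274), the second glutamine carrier, was at 86.1 (83.7 to 88.6) and 96.5 (94.0 to 99.0) CPM. Its relative log2 ratio of -0.02 (-0.08 to 0.03) becomes 0.16 without the median correction, so a direction cannot be given. Slc7a1 (chr5:148327410-148399904), which imports the arginine and ornithine used upstream of polyamines, was at 124 (121 to 127) and 89.5 (87.1 to 92.0) CPM. Its relative log2 ratio was -0.66 (-0.71 to -0.60), and -0.47 without the median correction, which is under 1.5-fold.

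Odc1 (chr12:17544794-17551505), the first enzyme of polyamine synthesis, had the highest level of the 9 genes in both libraries, 866 (858 to 874) CPM in WT and 555 (549 to 561) in Pac1-/- cells. The relative log2 ratio was -0.83 (-0.85 to -0.81). Of thinned cells, 3740 of 7480 in WT (interval 48.9% to 51.1%) and 38.6% (37.4 to 39.8) in Pac1-/- held a transcript, and of cells before thinning 64.0% and 57.1%. Srm (chr4:148591503-148594993), the next enzyme, was the rarest of the 9 in WT, at 12.0 (11.1 to 12.9) CPM against 17.2 (16.2 to 18.3) in Pac1-/-. Relative to the median gene this difference was 0.34 (0.19 to 0.48) on the log2 scale. The catabolic enzyme Sat1 (chrX:155213132-155216449) was at 174 (170.1 to 177) and 168 (164 to 171) CPM, with a relative log2 ratio of -0.24 (-0.28 to -0.20). The first enzyme of synthesis was therefore lower in Pac1-/- cells, and the second and the breakdown enzyme stayed within 1.5-fold.

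Odc1 was also unevenly spread over cells, beyond what its mean level gives. At 2000 UMIs a cell, the variance of its counts was 4.52 times the mean in WT and 4.42 times in Pac1-/-, against 1.78 and 1.62 for Slc38a2 and 1.86 and 2.08 for Sat1. For the other 6 genes the ratio lay between 1.02 and 1.22 in both libraries, which is close to the 1 of independent counting. The ratio also grows with the mean count, in WT 1.60 UMIs a cell for Odc1, 1.46 for Slc38a2 and 0.354 for Sat1. It thus sets Odc1 apart from Slc38a2, but does not rank its unevenness against Sat1 or the other genes of lower mean. With counts spread evenly over cells, 79.9% of WT cells would have held an Odc1 transcript, more than the 3740 of 7480 that did, and the 10% of cells with the most Odc1 held 50.7% of its UMIs in WT and 59.0% in Pac1-/-. The counting intervals of Odc1 are therefore narrower than its spread over cells. Where its intervals are said below to overlap or to leave out 0, this concerns counting error alone. Across cells of a library the 36 pairs of the 9 genes correlated weakly, with Pearson r from -0.04 to 0.06 in WT and -0.06 to 0.07 in Pac1-/-, in sparse counts where such values are no finding.

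Cytokine transcripts sorted these cells along Odc1. Each cell of at least 2000 UMIs was thinned to 2000, which kept 7480 WT and 6470 Pac1-/- cells and left out 914 and 617, and was then called by whether it held an Il5 UMI. A cell without one may still express the gene. Il5, the eosinophil growth factor, gave a UMI in 37.8% of cells of the WT library and 23.0% of those of the other, against 53.1% and 39.5% before thinning. Among thinned cells with 3 B cell markers, which should lack it, 1 of 8 in WT (12.5%, 0.316 to 52.7) and 1 of 21 in Pac1-/- (4.76%, 0.12 to 23.8) held an Il5 UMI, with median depths of 3664.5 and 4470 UMIs against 4511 and 5833 in the other cells, too few to set a background closely.

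In cells with Il5, 2 of the 9 genes were higher by over 1.5-fold in each library and 0 were lower, and in both these were Odc1 and Slc7a5. Of all genes tested, 5.91% were higher and 4.52% lower in WT, and 7% higher and 6.37% lower in Pac1-/-. The median gene itself lay at -0.17 and -0.19 in cells with Il5, and ratios are given relative to it. In WT, Odc1 was at 1224 CPM in cells with Il5 and 545 in cells without, a relative log2 ratio of 1.34 (1.28 to 1.39). In Pac1-/- it was at 947 and 365, a ratio of 1.56 (1.49 to 1.64). Odc1 was thus more than doubled with Il5 in either genotype. Slc7a5 was at 32.9 and 17.6 CPM in WT (1.07, 0.76 to 1.38) and at 21.8 and 13.0 in Pac1-/- (0.94, 0.49 to 1.38).

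Slc7a1 lay just under the threshold in both libraries, and passed it in 2 of 10 alternative settings in WT and 5 of 10 in Pac1-/-. It was at 129 and 97.9 CPM with and without Il5 in WT, a relative log2 ratio of 0.57 (0.43 to 0.71), and at 97.9 and 76.3 in Pac1-/-, a ratio of 0.55 (0.35 to 0.74). Slc3a2, the heavy chain, had ratios of 0.36 and 0.34. The remaining genes stayed between -0.23 and 0.25 in both libraries, including Slc38a2 at -0.01 (-0.07 to 0.05) in WT and 0.12 (0.03 to 0.21) in Pac1-/-. Cells with Il5 were deeper before thinning, with medians of 5635 against 4141 UMIs in WT and 7275 against 5612 in Pac1-/-. In cells matched on original UMIs the Odc1 ratios were 1.19 and 1.44.

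**Figure D2:**
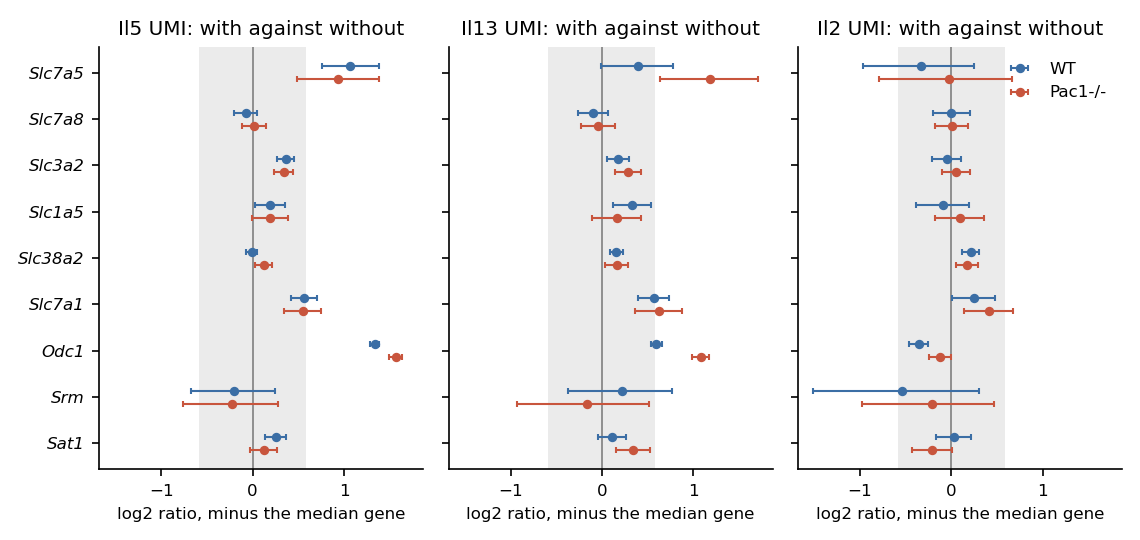
Log2 ratio of each gene in cells with against without a UMI of Il5, Il13 or Il2 (panels), minus the median gene, in WT (blue) and Pac1-/- (red), with 95% counting intervals and a grey band for ratios under 1.5-fold. Odc1 and Slc7a5 lie beyond the band for Il5 in both libraries, and no gene does for Il2.

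For Il13, the cytokine of mucus and airway responses, cells with a UMI made up 16.9% of WT and 10.8% of Pac1-/- thinned cells, and 28.8% and 21.4% before thinning. In the B cell marker cells the counts were 1 of 8 and 0 of 21, the latter with an upper Clopper-Pearson limit of 16.1% and a share of 14.3% as the limit that 3 counts give. In WT, 1 of the 9 genes was called higher, Odc1, against 3.51% of all genes called higher and 6.63% lower. It was at 1044 CPM with Il13 and 753 without, a relative log2 ratio of 0.59 (0.53 to 0.66), at the threshold itself, which it passed in 6 of 10 alternative settings. In Pac1-/-, 3 were called higher, Odc1, Slc7a5 and Slc7a1, against 7.05% of all genes higher and 8.92% lower. Odc1 was there at 851 and 456 CPM (1.08, 0.99 to 1.17), Slc7a5 at 27.1 and 13.5 (1.19, 0.63 to 1.71) and Slc7a1 at 106 and 78.3 (0.62, 0.36 to 0.88). Slc7a1 had a ratio of 0.57 in WT, so its call turned on a small difference, and in Pac1-/- it missed the threshold in 3 of 10 alternative settings. Over 20 further thinnings the Pac1-/- ratios ran from 0.53 to 1.59 for Slc7a5, 0.31 to 0.91 for Slc7a1 and 0.95 to 1.16 for Odc1, so the calls of Slc7a5 and Slc7a1 were lost in some of them. The WT ratio of Odc1 ran from 0.52 to 0.68.

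For Il2, a growth factor for lymphocytes, cells with a UMI made up 9.21% and 9.98% of thinned cells, 19.9% and 25.5% before thinning, and 0 of 8 and 0 of 21 B cell marker cells, with upper Clopper-Pearson limits of 36.9% and 16.1%, or 37.5% and 14.3% by 3 counts. None of the 9 genes passed 1.5-fold in either library, where 2.37% of all genes were called higher and 3.84% lower in WT, and 1.86% and 4.28% in Pac1-/-. Odc1 had a ratio below the median gene, -0.36 (-0.46 to -0.26) in WT and -0.12 (-0.25 to 0.00) in Pac1-/-. Slc38a2 lay slightly above it, at 0.21 (0.12 to 0.30) and 0.17 (0.05 to 0.29). Slc7a1 was at 0.25 (0.01 to 0.47) and 0.41 (0.14 to 0.68). Odc1 thus lay above the median gene in cells with Il5 and Il13 and below it in cells with Il2, each set against all cells without that cytokine. Its Il2 ratio in Pac1-/- turned sign in 3 of 10 alternative settings. The cells without Il2 include those with Il5, where Odc1 was high. Against cells with none of these cytokines, its level was higher with Il2, at 634 against 533 CPM in WT and 461 against 332 in Pac1-/-.

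Since many cells hold both Il5 and Il13, the thinned cells were divided into 5 classes: any cell with Il2, then cells with Il5 and Il13, Il5 alone, Il13 alone and none of these. The shares in WT were 9.21%, 8.92%, 25.6%, 6.36% and 49.9%, and in Pac1-/- 9.98%, 4.19%, 16.3%, 5.39% and 64.1%. Cells without these cytokines were thus more frequent in the Pac1-/- library and those with Il5 less so. In WT, Odc1 was at 533 (517 to 550) CPM in cells with none, 634 (593 to 678) with Il2, 699.6 (647 to 755) with Il13 alone, 1228 (1193 to 1264) with Il5 alone and 1329 (1268 to 1392) with both. Neighbours in that order whose intervals overlapped were Il2 and Il13 alone, and the intervals of Il5 alone and of both came close to meeting. In Pac1-/- the order was the same, at 332, 461 (424 to 499), 722 (660 to 788), 960.2 (919 to 1003) and 1061 (976 to 1151), and only the last 2 overlapped.

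**Figure D3:**
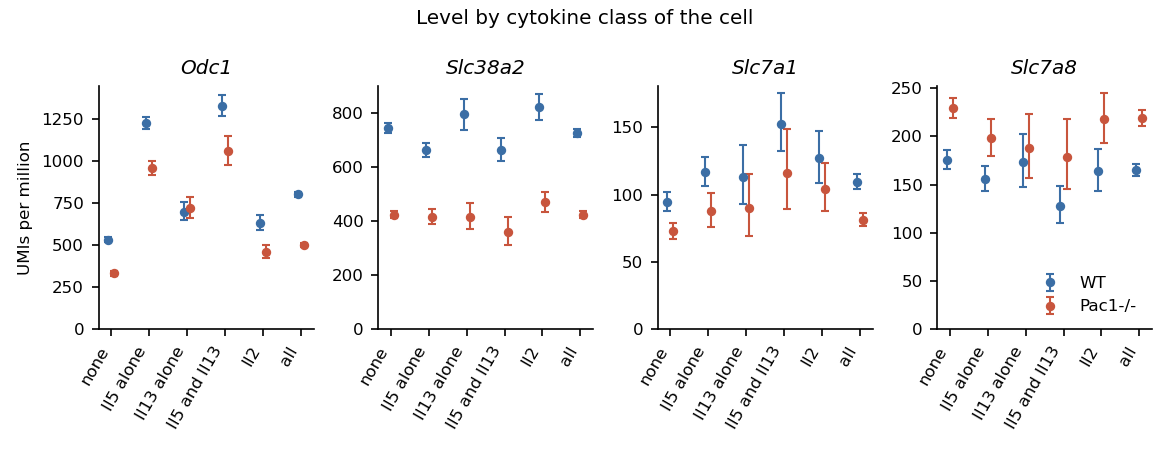
Level of Odc1, Slc38a2, Slc7a1 and Slc7a8 in CPM by cytokine class of the cell, in WT (blue) and Pac1-/- (red), with 95% counting intervals; "all" is every thinned cell. Odc1 rises from the class with none to the class with Il5 and Il13, and Slc38a2 lies between 664 and 824 CPM in all WT classes and between 362 and 471 in all Pac1-/- classes.

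Slc38a2 differed between the libraries in every class. Its level lay between 664 and 824 CPM over the WT classes and between 362 and 471 over the Pac1-/- classes, so the ranges did not overlap. Within classes, Pac1-/- cells had a relative log2 ratio to WT cells of -0.96 (-1.03 to -0.90) with none, -0.93 (-1.08 to -0.79) with Il2, -1.01 (-1.21 to -0.81) with Il13 alone, -0.79 (-0.91 to -0.68) with Il5 alone and -0.91 (-1.14 to -0.69) with both. For Odc1 the same ratios were -0.84 (-0.91 to -0.77), -0.59 (-0.74 to -0.44), -0.03 (-0.20 to 0.14), -0.48 (-0.55 to -0.40) and -0.36 (-0.49 to -0.22). The Odc1 difference was thus largest in cells without these cytokines and was not detectable in the class with Il13 alone. Slc7a1 had within-class ratios from -0.53 to -0.41, and Slc7a8 from 0.04 to 0.45. The sparse Slc7a5 was at -0.78 (-1.18 to -0.38) with none and -0.75 (-1.27 to -0.25) with Il5 alone. Its intervals held 0 with Il2 (-0.49, -1.42 to 0.42), with both (-0.52, -1.54 to 0.39) and with Il13 alone (0.50, -0.42 to 1.43).

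Weighting the Pac1-/- cells to the class makeup of the WT library, an alternative added after the levels were seen, raised their Odc1 level from 499 to 595 CPM, with WT at 802 among thinned cells. Their Slc38a2 level went from 425 to 421, with WT at 728. With this weighting the number of the 9 genes lower by over 1.5-fold went from 4 to 2. Slc38a2 and Slc7a5 passed, and Odc1 at -0.58 and Slc7a1 at -0.52 lay just under the threshold.

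Grading cells by their number of Il5 UMIs gave steps of Odc1 in both libraries, in levels that are not set against a median gene. In WT it was at 545 CPM in the 4652 cells with no Il5 UMI, 877 in the 1220 with 1 UMI, 1251 in the 806 with 2 to 3 and 1724 (1661 to 1790) in the 802 with 4 or more. In Pac1-/- it was at 365 in 4979 cells, 608 in 751, 911 in 378 and 1689 (1596 to 1787) in 362. By counting intervals alone, neighbouring bins of a library did not overlap, and the libraries were apart in the first 3 bins and overlapped in the last. Slc7a5 went from 17.6 to 46.8 (36.8 to 58.6) CPM in WT and from 13.0 to 37.3 (24.6 to 54.3) in Pac1-/-, and Slc7a1 from 97.9 to 139 (121 to 159) and from 76.3 to 120.2 (96.2 to 148). Slc7a8 went from 176 to 143 (125 to 163) and from 224 to 173 (144 to 206). Slc38a2 lay at 761.5 (744 to 779), 722, 692 and 579 (542 to 617) CPM over the WT bins and at 430, 421, 406 and 394 (349 to 442) over the Pac1-/- bins, where the first and last intervals overlapped. Since the median gene was itself lower in cells with Il5, these falling levels do not give a direction for Slc38a2 or Slc7a8 relative to other genes.

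**Figure D4:**
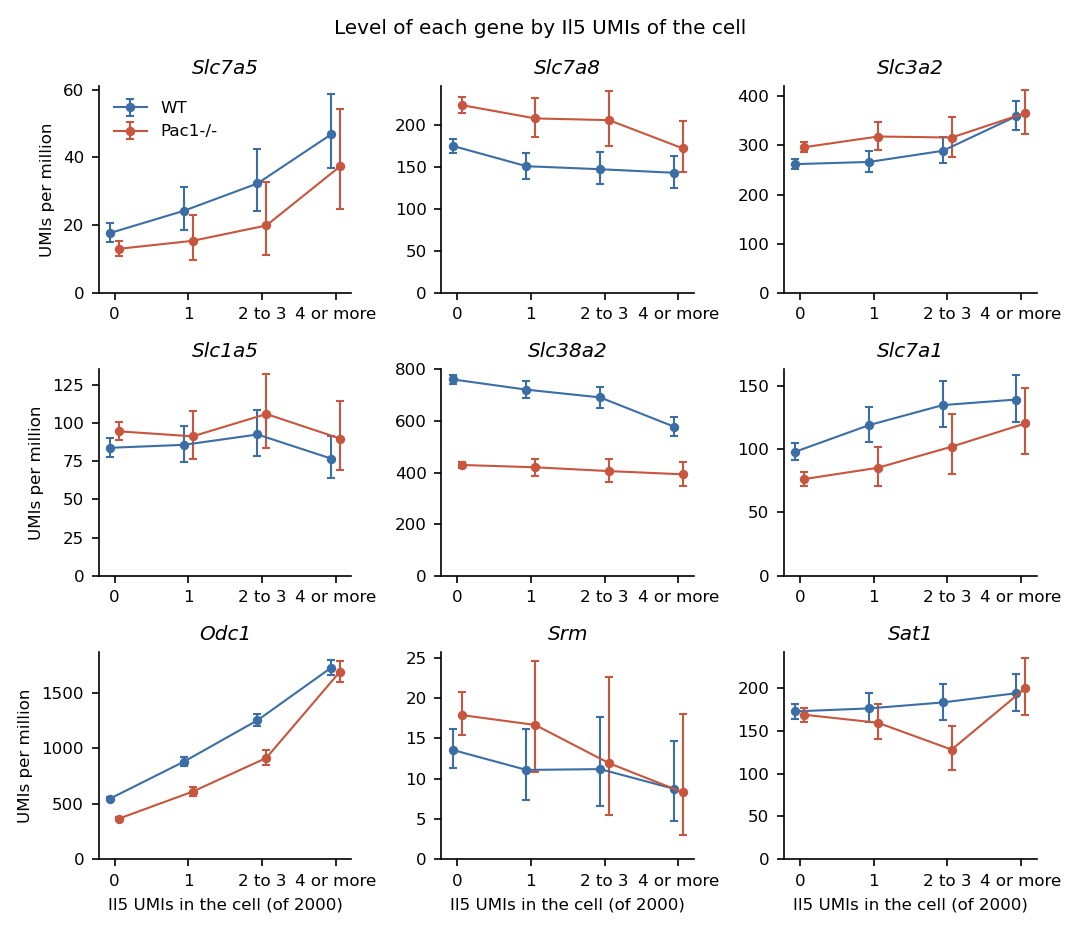
Level of each of the 9 genes in CPM in cells with 0, 1, 2 to 3 and 4 or more Il5 UMIs of 2000, in WT (blue) and Pac1-/- (red), with 95% counting intervals. Odc1 goes from 545 to 1724 in WT and from 365 to 1689 in Pac1-/-, where the libraries meet.

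In cells of a like Il5 count, Odc1 had a relative log2 ratio between Pac1-/- and WT of -0.74 (-0.80 to -0.68) at no Il5 UMI, -0.63 (-0.75 to -0.52) at 1, -0.53 (-0.65 to -0.40) at 2 to 3 and -0.09 (-0.18 to 0.01) at 4 or more. Slc38a2 had ratios of -0.99 (-1.04 to -0.93), -0.88 (-1.02 to -0.75), -0.84 (-1.02 to -0.65) and -0.61 (-0.81 to -0.42), and the first and last intervals did not overlap. They did overlap in cells thinned to 3000 UMIs, at -0.98 (-1.03 to -0.93) and -0.80 (-0.95 to -0.66), and to 1000 UMIs, at -1.0 (-1.07 to -0.93) and -0.84 (-1.32 to -0.39). Without predicted doublets, at 2000 UMIs, the last Slc38a2 ratio was -0.53 (-0.73 to -0.33), which is under 1.5-fold. The mean Il5 count in the last bin was 8.27 UMIs in WT and 8.45 in Pac1-/-. At 2000 UMIs the Odc1 difference was therefore not detectable in the cells with the most Il5, also without predicted doublets (-0.07, -0.17 to 0.03), while that of Slc38a2 was. In cells thinned to 3000 UMIs the last Odc1 ratio was -0.11 (-0.18 to -0.04), an interval that leaves out 0. Since counting intervals of Odc1 are narrower than its spread over cells, leaving out 0 does not establish a difference here. Thinned to 1000 UMIs, the ratios had no even order, with 0.12 (-0.05 to 0.28) at 2 to 3 and -0.30 (-0.51 to -0.10) at 4 or more in 388 and 165 cells, which also leaves out 0. These bins were formed after the levels were seen.

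**Figure D5:**
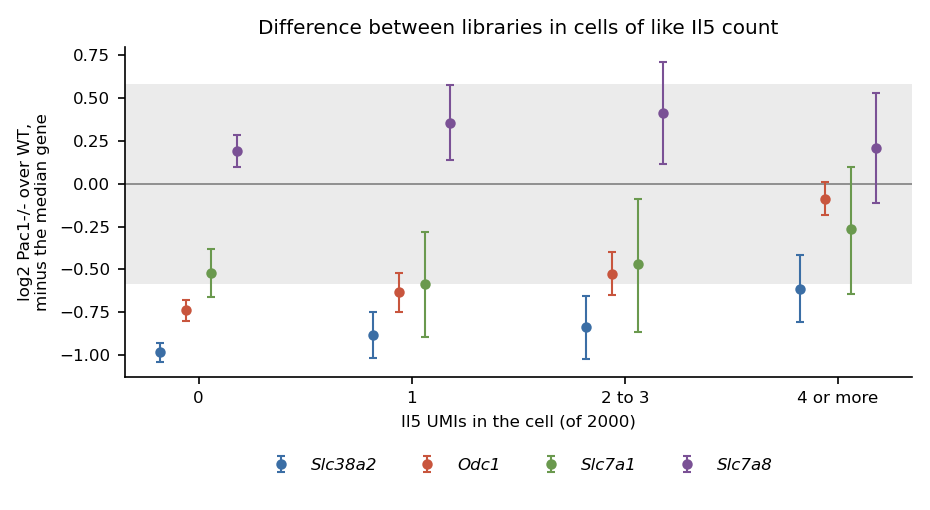
Log2 ratio of Pac1-/- over WT minus the median gene for Slc38a2, Odc1, Slc7a1 and Slc7a8 in cells with 0, 1, 2 to 3 and 4 or more Il5 UMIs of 2000, with 95% counting intervals and a grey band for ratios under 1.5-fold. Odc1 goes from -0.74 to -0.09 across the bins and Slc38a2 from -0.99 to -0.61.

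Graded by Odc1 in turn, Il5 was at 389 CPM in the 3740 WT cells with no Odc1 UMI and 1442 in the 1137 with 4 or more, and at 205 in 3975 and 1321 (1251 to 1393) in 507 Pac1-/- cells. Slc7a5 went from 17.2 to 39.1 (31.4 to 48.2) CPM in WT and from 9.94 to 35.5 (24.9 to 49.2) in Pac1-/-. Slc7a1 went from 91.0 to 143 (128 to 160) and from 67.4 to 123 (103 to 147). Slc3a2 went from 253 (242 to 265) to 321 (298 to 345) and from 289 (278 to 301) to 381 (344 to 421). Slc38a2 was at 736 and 675 in WT, while in Pac1-/- it was at 404 (390.0 to 418) with no Odc1 UMI, 490.05 (456 to 525.5) with 2 to 3 and 443 (403 to 486) with 4 or more. These levels are again not set against a median gene. The intervals of the first and last bins did not overlap for Slc7a5, Slc7a1 and Slc3a2 in either library, and Slc38a2 had no common direction in the 2 libraries.

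Likeness of pattern was measured by Pearson's r of log2(level + 10) over 10 points, the 5 classes in both libraries, among 5153 genes of at least 20 CPM. The points share libraries, so r is a description. The genes most like Odc1 were Rgs2 (0.98), a regulator of G protein signaling, Isy1 (0.98) and Ramp3 (0.98), a receptor-activity-modifying protein. Those most like Slc38a2 were Clk1 (0.99), Cox6c (0.99) and Cd52 (0.99), and those most like Slc7a8 were Ndufs7 (0.98), Isca2 (0.98) and Phb (0.98). Slc7a5 was nearest to Baiap2 (0.94), Hnrnpk (0.92) and Snhg15 (0.92), and Slc7a1 to B3gnt2 (0.94), Ccl1 (0.94) and Fnip1 (0.92). Slc3a2 was nearest to Tpm3 (0.96), Gpbp1 (0.95) and U2af1 (0.93), Srm to Triobp (0.92), Card19 (0.91) and Twf2 (0.90), Slc1a5 to Atxn7l3 (0.85), Arpc2 (0.84) and Grpel1 (0.84), and Sat1 to Gm49336 (0.83), Cacul1 (0.82) and P4hb (0.81). Among the 9 genes themselves the closest pair was Slc7a5 and Odc1 (0.87), and the most opposed was Slc7a8 and Slc7a1 (-0.86).

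Other genes of these pathways were read from lists of pathway members, and each count is set against the 12.8% of all genes called lower and the 8.2% called higher. Of 20 further polyamine genes, 16 had at least 50 UMIs, of which 4 were lower by over 1.5-fold in Pac1-/- and 0 higher, with 8 above and 8 below the median gene and a list median of 0.02 relative to it. Among those lower, spermine synthase Sms was at 169 CPM in WT and 112 in Pac1-/-, a relative log2 ratio of -0.78 (-0.83 to -0.74), with spermine oxidase Smox at 29.2 and 22.1 (-0.59) and Eif5a2, a paralog of the factor that spermidine modifies, at 3.06 and 2.23 (-0.65). Without the median correction Smox lay at -0.40 and Eif5a2 at -0.46, under 1.5-fold. Slc7a1, Odc1 and Sms were thus all lower in this library, while Srm was not. Of 19 further amino acid transporters, 10 were tested and 0 were called. Slc38a1, a relative of Slc38a2, was at 620 and 505 CPM (-0.48, -0.51 to -0.46).

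Of 20 cytosolic aminoacyl-tRNA synthetase genes, which charge tRNAs with amino acids, 5 were lower in Pac1-/- and 0 higher: Sars at 110.0 and 64.8 CPM (-0.95), Aars at 18.6 and 11.3 (-0.91), Gars at 29.96 and 19.5 (-0.81), Nars at 105 and 68.9 (-0.80) and Eprs at 734 and 497 (-0.75). Of the 20, 8 lay above and 12 below the median gene, with a list median of -0.08, and without the median correction 4 were lower and 1 higher, since Eprs at -0.56 was under 1.5-fold and Farsa at 0.71 over it. Of 14 tested genes of the ATF4 pathway, which answers amino acid shortage, Sesn2 was lower (-0.69) and Phgdh, of serine synthesis, higher (0.63). Of 23 tested genes of mTORC1 and amino acid sensing, 2 were higher, Lamtor5 (0.91) and Lamtor4 (0.59), both subunits of the Ragulator complex, and 0 lower. Of 8 Myc network genes, Mxi1, a Myc antagonist, was lower (-0.88). Of the 14 immediate-early and heat shock genes, Hspa1a was higher (0.80) and Atf3 lower (-0.66), and 12 lay above the median gene. Without the median correction Sesn2 and Atf3, at -0.50 and -0.47, were under 1.5-fold, and the genes higher by over 1.5-fold went from 1 to 2 in the ATF4 list with Aldh18a1 (0.64), from 2 to 4 in the mTORC1 list with Lamtor2 (0.71) and Akt1s1 (0.65), and from 1 to 3 among the heat shock and immediate-early genes with Hspa1b (0.66) and Dnajb1 (0.68).

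By Il5 status, 9 further transporters, 14 polyamine, 12 ATF4 and 20 synthetase genes were tested in each library. So were 23 mTORC1, 8 Myc network and 14 immediate-early and heat shock genes. Of all genes, 5.91% were higher and 4.52% lower in WT, and 7% and 6.37% in Pac1-/-. Named here are the list genes that passed 1.5-fold the same way in both libraries. The share of all genes that did so was not counted. Smox was at 41.4 and 16.9 CPM with and without Il5 in WT (1.46) and at 30.2 and 16.6 in Pac1-/- (1.05). Eprs had ratios of 0.99 and 1.10, Mxi1 0.96 and 1.0, the mTORC1 activator Rheb 0.65 and 0.75, and Atf3 0.60 and 0.73. Folliculin (Flcn), which acts on the Rag GTPases, was at 0.71 and 0.75 on few UMIs. The heat shock genes Hspa1a (-0.73 and -0.63), Hspa1b (-0.80 and -0.66) and Dnajb1 (-0.71 and -0.59) were lower in cells with Il5, opposite to Odc1, and the part of these values in the Odc1 ratios was not tested. Sms stayed under 1.5-fold, at 0.24 and 0.20, where Odc1 and Smox passed. By Il13 status Smox (0.61 and 1.0), Eprs (0.70 and 1.0) and Mxi1 (0.66 and 0.97) were higher in both libraries. Farsb, a phenylalanyl-tRNA synthetase subunit, was past 1.5-fold lower in both, at -0.64 (-1.48 to 0.12) and -0.73 (-1.82 to 0.19), on 16 and 10 UMIs in cells with Il13 and with intervals that hold 0. By Il2 status none passed in both.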

How the data were processed

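The deposited files are whole-number counts of UMIs per gene and barcode, 1 matrix for each genotype. The authors made these counts with Cell Ranger (6.1.1 per the submitters' processing notes and the study's methods, 4.0.0 per the file headers) on the mm10 genome, and no normalization had been applied. Libraries were 10x Genomics 3′ v3.1 libraries of sorted ILC2s pooled over mice. The annotation release is not given in the sources used here.

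Barcodes with 500 genes or more and mitochondrial UMIs of 10% or less were kept. The 9 genes and all other lists were chosen with earlier results of these data known. With 1 library per genotype no test was possible and cells were not used as replicates. Counts were summed and given as CPM, with exact Poisson intervals for levels, exact conditional binomial intervals for ratios and Clopper-Pearson intervals for shares, all at 95% and for counting error only. Ratios between libraries are relative to the median of genes with at least 50 UMIs. Ratios by cytokine status used cells thinned to 2000 UMIs and genes with at least 10 UMIs expected in the smaller status, with the cytokine called from the thinned counts. Promoter motifs were searched on both strands. Of the other lists, genes past 1.5-fold between libraries, or past it in both libraries for a status, were named, up to 6 a list among those with at least 50 UMIs. 1 gene of the polyamine list, counted with it, is not reported here. For likeness, the 3 genes of highest r were named. Predicted doublets, the cells with the most simulated doublets among their neighbours at 0.8% per 1000 barcodes (730 WT and 538 Pac1-/- cells), were kept and left out only as an alternative. No cells were assigned to clusters. Gene positions were taken from GENCODE on GRCm38. The ratios and calls were tested on simulated counts. Software was Python 3.11.15, scikit-learn 1.9.0 for doublets, scipy 1.17.1 for intervals, and numpy 2.4.6, matplotlib 3.10.9 and pandas 2.3.3.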

Additional observations from a re-analysis of the deposited data

How the results depend on the processing

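The 7 counts of genes past 1.5-fold were recomputed with no median correction, with a stricter cell filter and without predicted doublets, deep cells or cells of other types. The counts by cytokine status were also recomputed at other thinning depths and in cells matched on UMIs, and the count between libraries in cells thinned to 2000 UMIs but at no other depth and not in matched cells. The ratios of the 9 genes gave 609 alternative values, of which 496 lay within the counting interval of the reported one, 113 outside it, and 0 past the threshold in the other direction. Between libraries the count of 4 became 2 with Pac1-/- cells weighted to the WT class makeup, and 3 with no median correction, where Slc7a1 lay at -0.47. For Il5 status in Pac1-/- the count of 2 became 4 when thinned to 1000 UMIs, with Slc7a1 (0.71) and Srm (-2.21) added. For Il13 status in WT the count of 1 became 0 with no median correction, without thinning and with matched UMIs, where Odc1 lay at 0.47, 0.39 and 0.51; it became 2 at 1000 UMIs and without deep cells, and 3 when 2 Il13 UMIs were required. At 3000 UMIs it was 1, with Slc7a5 (0.66) in place of Odc1 (0.45). For Il2 status the count of 0 became 1 in WT without predicted doublets or without deep cells, each time Srm (-0.91 and -1.34), and 2 in Pac1-/- when 2 Il2 UMIs were required, with Slc7a1 (0.74) and Slc38a2 (0.60). The ratio of Slc7a1 passed 1.5-fold in 2 of 10 alternatives for Il5 and for Il13 in WT, in 5 of 10 for Il5 in Pac1-/- (0.36 to 0.84) and in 7 of 10 for Il13 in Pac1-/- (0.44 to 0.77). The cause of these shifts was not tested. Over 20 further thinnings the Il5 ratio of Odc1 ran from 1.18 to 1.33 in WT and 1.54 to 1.73 in Pac1-/-, so that the reported WT value lies just above all of them. Slc7a5 and Srm had too few UMIs for a value in 6 settings each. No paired analysis was possible because each genotype is 1 library with no replicate.

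The spread between mice is unknown, mouse pool, capture and genotype cannot be told apart, and levels near 10 CPM give status ratios with intervals wider than 1.5-fold.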
